A study of Homo sapiens with 30 samples.

Results

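Soshiho-tang extract at 100 µg/mL was set against Yijin-tang extract at the same concentration in SW1783, an established human astrocytoma line, after 24 h of treatment. The comparison was chosen by label and rests on 6 of the 30 RNA-seq libraries of the series, 3 for each extract, from one library set. Groups at other concentrations entered the same fit and serve for comparison. They are Soshiho-tang and Yijin-tang at 500 and 20 µg/mL, and cells given only the DMSO vehicle (0.1% in the labels), with 3 libraries each. By library name the vehicle libraries form a set of their own, while the sample titles put them in batch E with both extracts. Both decoctions were supplied as dried aqueous ethanol extracts, so each treatment is a mixture, and no compound was tested alone. All libraries come from 1 cell line in culture. The labels do not say that replicates were separate cultures, so the p-values reflect only how far these libraries spread, and that spread may be technical.

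Soshiho-tang (Xiao Chai Hu Tang in Chinese) is a classical formula built around bupleurum and scutellaria roots, and Yijin-tang (Er Chen Tang) is one built around pinellia tuber and citrus peel. In the textbook recipes both also hold pinellia, ginger and licorice, while the recipes used here are not spelled out in the labels. The gene list with the lowest median difference holds targets of the aryl hydrocarbon receptor (AhR). AhR is a transcription factor of the cytosol that binds planar aromatic molecules, plant flavonoids among them, moves to the nucleus and pairs with ARNT. The pair binds DNA at xenobiotic response elements with the core letters GCGTG and turns on detoxifying enzymes such as CYP1A1 and CYP1B1. It also turns on its own brakes, the repressor AHRR and the ADP-ribosyltransferase TIPARP.

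The promoters of AhR targets that were lower with Soshiho-tang are shown because the core letters can be read in them. The 250 bases before the annotated gene start are printed on the gene's own strand (RefSeq, GRCh38.p14), with GCGTG in capitals, or CACGC where the core lies on the opposite strand. The CYP1A1 window is chr15:74725529-74725778 on the minus strand, that of AHRR is chr5:321464-321713 on the plus strand, and that of TIPARP is chr3:156674340-156674589 on the plus strand. RefSeq and GENCODE, which gives the gene spans printed with the values, place these gene starts differently. The windows of AHRR and TIPARP lie inside the GENCODE spans, and that of CYP1A1 overlaps its span.
CYP1A1: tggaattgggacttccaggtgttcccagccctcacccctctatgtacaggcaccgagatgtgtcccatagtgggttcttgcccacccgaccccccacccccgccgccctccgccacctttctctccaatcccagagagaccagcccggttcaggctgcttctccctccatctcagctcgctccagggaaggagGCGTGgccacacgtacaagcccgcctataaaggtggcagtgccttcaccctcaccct
AHRR: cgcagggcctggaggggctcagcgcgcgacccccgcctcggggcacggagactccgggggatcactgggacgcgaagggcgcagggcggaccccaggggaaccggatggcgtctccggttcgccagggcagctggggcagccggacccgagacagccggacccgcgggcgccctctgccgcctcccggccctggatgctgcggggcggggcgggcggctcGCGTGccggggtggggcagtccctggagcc
TIPARP: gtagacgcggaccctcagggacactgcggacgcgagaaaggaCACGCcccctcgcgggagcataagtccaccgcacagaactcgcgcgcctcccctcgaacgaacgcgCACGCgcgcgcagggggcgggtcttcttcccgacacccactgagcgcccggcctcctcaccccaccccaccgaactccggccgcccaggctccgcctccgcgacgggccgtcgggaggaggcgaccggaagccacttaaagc
The core began 57 bases upstream of the start in CYP1A1, 30 bases upstream in AHRR, and 208 and 142 bases upstream in TIPARP. Of the 5 called members of the AhR list, 4 had a window in the table used. The SLC7A5 window holds 1 core, 173 bases upstream. GCGTG on either strand was found in 32.22% of 35116 promoter windows of this length, so a match describes the letters and is no evidence of binding.

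Total estimated counts in the 6 libraries ran from 23.9 to 30.9 M, within the 23.9 to 33.1 M of all 30 libraries. Levels are counts relative to the TMM-scaled library total (CPM). Of the markers that define astrocytes, GFAP did not exceed 0.152 CPM and S100B 0.161 CPM in any of the 6 libraries, and neither reached the filter for testing. Vimentin (VIM), also an intermediate filament, averaged 5299.6 ± 377 CPM with Soshiho-tang against 5106 ± 334 with Yijin-tang (SD, n = 3 each; log2 difference 0.05 ± 0.06 SE, adjusted p = 0.818, edgeR). One library stood apart in its balance of long and short transcripts. In Yijin-tang replicate 1 the genes in the longest quintile of transcripts lay lower than those in the shortest quintile, on the log2 scale relative to the mean of the 6 libraries (-0.24). The other 5 libraries lay between -0.03 and 0.10 on this scale. Counts of calls are also given without that library, and genes followed through omissions that lost their call without it are pointed out.

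The extracts differed modestly at 100 µg/mL, and xenobiotic-response genes that were lower with Soshiho-tang had some of the lowest p-values. Of 16872 genes tested, 127 were called at an adjusted p under 0.05 (0.753%; edgeR quasi-likelihood test, Benjamini-Hochberg adjustment). Soshiho-tang was higher in 46 of them (0.273%) and lower in 81 (0.48%). The changes were small, with 107 of the 127 below 1.5-fold and 4 above 2-fold, and with a median absolute log2 difference of 0.38. The median over all genes was -0.003. In all 127 the 3 libraries of one extract lay above the 3 of the other, as they did in 2471 of all genes tested (14.6%), with Soshiho-tang above in 7.67% and below in 6.98% of the genes tested. Without Soshiho-tang replicate 2 the count was 61, without replicate 1 it was 72, without replicate 3 it was 80, and without Yijin-tang replicate 1 it was 76.

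**Figure D1:**
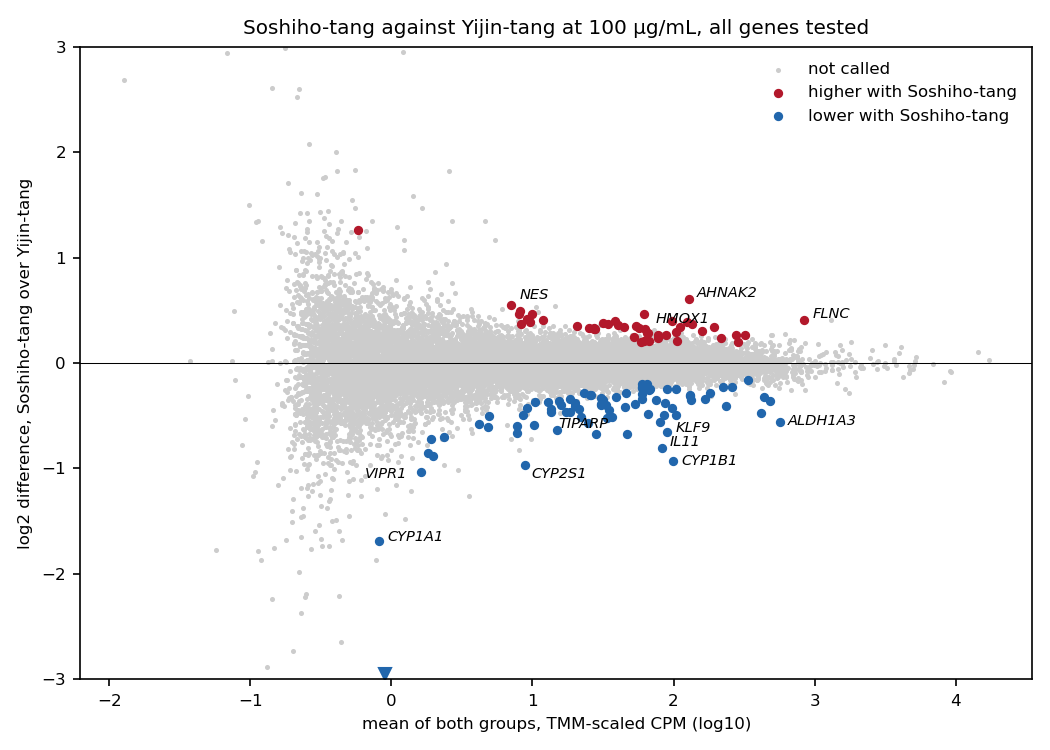
Log2 difference between Soshiho-tang and Yijin-tang at 100 µg/mL (vertical axis) against the mean CPM of both groups on a log10 scale (horizontal axis), with 1 point per gene tested; red points are the 46 genes called higher with Soshiho-tang and blue points the 81 called lower. Most called genes lie within 1.5-fold, CYP1B1 lies well below the cloud and CYP1A1 lies among scarce genes of wide spread, and of 24 genes beyond 3 log2 units only RPS10-NUDT3 is marked, by the triangle at the lower edge.

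Most of the tested AhR targets were lower with Soshiho-tang. Of 11 genes on the list 8 could be tested, and all 8 had negative log2 differences with a median of -0.67, against -0.003 over all genes. The test called 5 of them lower (CYP1A1, CYP1B1, AHRR, TIPARP and SLC7A5; 62.5%, against 0.48% of all genes tested) and 0 higher. The list was chosen with earlier results of these data known, so this share only describes its members. CYP1B1 (chr2:38066973-38109902), a cytochrome P450 that oxidises polycyclic aromatic compounds and steroids, had 65.8, 69.8 and 67.2 CPM in the Soshiho-tang libraries, against 121, 136 and 130 CPM in the Yijin-tang libraries. Every Soshiho-tang library lay far below every Yijin-tang library, while the vehicle libraries averaged 129 ± 8.69 CPM (SD, n = 3). The log2 difference was -0.93 ± 0.05 (SE; adjusted p = 9.79e-10), the lowest p of the comparison. CYP1A1 (chr15:74719542-74725610), its relative and the classical reporter of AhR activity, had 0.366, 0.403 and 0.380 CPM with Soshiho-tang, against 1.36, 1.13 and 1.22 CPM with Yijin-tang and a mean of 1.16 CPM in vehicle. Its transcripts were scarce in every library, yet the groups did not overlap (a log2 difference of -1.69 ± 0.28, adjusted p = 0.00271). The call held in every omission of 1 library. It ended when only the 6 libraries were fitted with replicate number as a block (adjusted p = 0.054, edgeR).

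The receptor's feedback genes moved the same way. AHRR (chr5:304176-438291), which competes with AhR for ARNT, had 22.6, 19.6 and 23.3 CPM with Soshiho-tang, against 31.6, 37.3 and 35.7 CPM with Yijin-tang (a log2 difference of -0.67 ± 0.07, adjusted p = 9.46e-06). TIPARP (chr3:156673235-156706770), which modifies AhR and promotes its degradation, had 35.4, 35.8 and 36.2 CPM with Soshiho-tang, against 55.6, 57.2 and 58.5 CPM with Yijin-tang (-0.67 ± 0.05, adjusted p = 9e-08). The spread within each group was small beside the gap in both genes. They differed in where the vehicle stood. TIPARP averaged 43.6 ± 1.96 CPM in vehicle, between the extracts, whereas AHRR averaged 44.8 ± 0.744 CPM in vehicle, above both (SD, n = 3). Since vehicle libraries form a set of their own by library name, treatment and library set cannot be told apart in any such comparison.

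The other list members include a transporter and further enzymes. SLC7A5, a large neutral amino acid transporter that also belongs to the ATF4 list, had 212, 194 and 211 CPM with Soshiho-tang, against 230, 240 and 251 CPM with Yijin-tang (-0.22 ± 0.04, adjusted p = 0.0151). That call ended without Soshiho-tang replicate 2 (adjusted p = 0.128) or Yijin-tang replicate 3 (adjusted p = 0.0997). ALDH3A1, an aldehyde dehydrogenase, stood at 0.332, 0.403 and 0.304 CPM with Soshiho-tang, against 0.909, 0.417 and 0.863 CPM with Yijin-tang, and did not pass the test (-1.10 ± 0.31, adjusted p = 0.141). NQO1, a quinone reductase shared with the NRF2 list, showed -0.21 ± 0.06 (adjusted p = 0.125), and NFE2L2, which encodes NRF2 itself, -0.13 ± 0.06 (adjusted p = 0.462). CYP2S1, a further cytochrome P450 that is not on the list and was named by its size of change, had 5.75, 6.01 and 6.07 CPM with Soshiho-tang, against 11.0, 11.0 and 12.9 CPM with Yijin-tang. Its groups lay nearly 2-fold apart (a log2 difference of -0.97 ± 0.11, adjusted p = 4.35e-05).

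**Figure D2:**
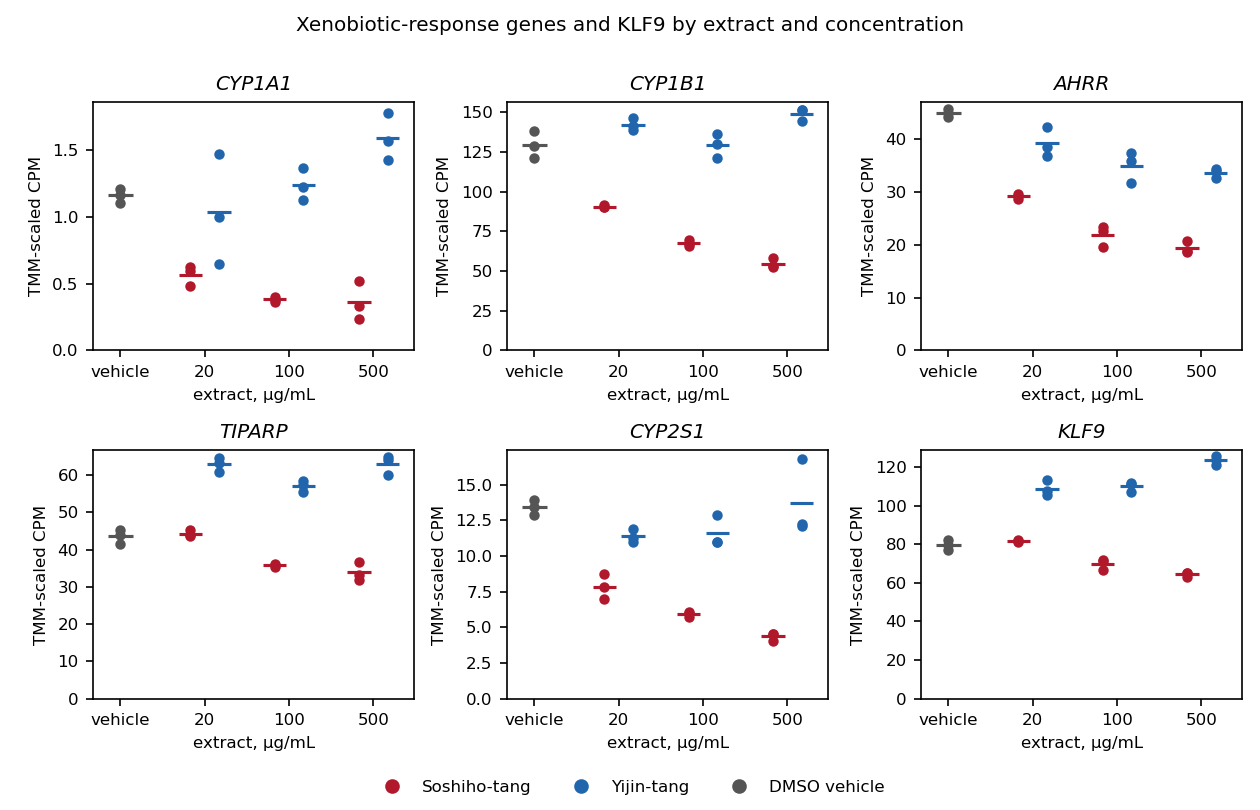
TMM-scaled CPM (vertical axis, from 0) of 6 genes in vehicle and at 20, 100 and 500 µg/mL (horizontal axis); points are libraries (n = 3 per group), bars are means, red is Soshiho-tang, blue Yijin-tang and grey vehicle. At 100 µg/mL all 3 Soshiho-tang libraries lie below all 3 Yijin-tang libraries in each panel, for example at 65.8 to 69.8 against 121 to 136 CPM for CYP1B1.

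Beyond the AhR list, the larger decreases with Soshiho-tang included a cytokine, a transcription factor, a receptor and a sulfotransferase. IL11 (chr19:55364389-55370463), a cytokine of the IL6 family, had 57.8, 62.3 and 59.4 CPM with Soshiho-tang, against 111, 97.1 and 106 CPM with Yijin-tang (-0.81 ± 0.09, adjusted p = 1.4e-05). Vehicle cells averaged 71.4 CPM, between both extracts. KLF9 (chr9:70384597-70414624), a zinc-finger transcription factor induced by glucocorticoids in many cells, had 72.0, 71.2 and 66.8 CPM with Soshiho-tang, against 107, 112 and 111 CPM with Yijin-tang (-0.65 ± 0.04, adjusted p = 4.22e-09). Its vehicle mean of 79.6 CPM was nearer to Soshiho-tang. VIPR1, a receptor for vasoactive intestinal peptide, averaged 1.06 ± 0.0323 CPM with Soshiho-tang against 2.18 ± 0.168 with Yijin-tang (SD, n = 3 each; -1.04 ± 0.17, adjusted p = 0.00177). HS6ST3, a sulfotransferase that modifies heparan sulfate, averaged 6.02 ± 0.179 CPM with Soshiho-tang against 9.54 ± 0.761 with Yijin-tang (-0.66 ± 0.12, adjusted p = 0.00571).

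Of the called genes with a gene symbol and at least 1 CPM in the higher group, the 15 with the largest decreases were followed when 1 library was left out. NPTX1, a secreted neuronal pentraxin (-0.71 ± 0.13), lost its call without Soshiho-tang replicate 1 (adjusted p = 0.0573), and SERPINB2, an inhibitor of plasminogen activators (-0.64 ± 0.12), without Soshiho-tang replicate 2 (adjusted p = 0.0583). EPGN, a ligand of the EGF receptor (-0.88 ± 0.17), lost it in 3 of 6 omissions, with an adjusted p of up to 0.0668. ACTC1, the cardiac muscle actin (-0.86 ± 0.19), lost it in 5 of 6 (up to 0.183), and SYT15B (-0.61 ± 0.14) in 4 of 6 (up to 0.207). For ACTC1 and SYT15B the omissions that ended the call included that of Yijin-tang replicate 1. RPS10-NUDT3, a gene model that reads through from RPS10 into NUDT3, had 0, 0 and 0.0759 CPM with Soshiho-tang, against 0.584, 3.76 and 0.971 CPM with Yijin-tang (fitted log2 difference -5.87 ± 1.35, adjusted p = 0.0405). Its reads overlap those of the separate genes, the fitted size rests on libraries near 0, and the call was lost in 4 of 6 omissions. Of these 15 decreases, 9 were called in every omission. A called gene with no symbol was not followed.

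Smaller decreases with little spread completed this side. PTGS2, the inducible cyclooxygenase that makes prostaglandin precursors, had 66.2, 64.4 and 64.8 CPM with Soshiho-tang, against 92.6, 99.2 and 96.8 CPM with Yijin-tang (-0.56 ± 0.05, adjusted p = 8.51e-07). ALDH1A3, an enzyme that makes retinoic acid, averaged 458 CPM with Soshiho-tang against 674 with Yijin-tang (-0.56, adjusted p = 1.03e-07). STC2, a secreted glycoprotein of the stanniocalcin family, had 349, 364 and 341 CPM with Soshiho-tang, against 491, 487 and 482 CPM with Yijin-tang (-0.47 ± 0.05, adjusted p = 1.2e-05). ABCG2, a drug efflux pump, averaged 18.2 ± 0.752 CPM with Soshiho-tang against 26.0 ± 0.997 with Yijin-tang (-0.51 ± 0.07, adjusted p = 8.4e-05). GDA, the guanine deaminase, averaged 19.8 ± 0.422 CPM with Soshiho-tang against 29.5 ± 2.20 with Yijin-tang (-0.57 ± 0.07, adjusted p = 3.17e-05). The smallest called decrease was -0.16, for NAMPT, the enzyme that starts NAD salvage. ALDH1A3 and NAMPT were chosen after their values were seen.

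Named genes higher with Soshiho-tang included a scaffold protein, an ion channel and a histone deacetylase. AHNAK2 (chr14:104937244-104978357), a very large scaffold protein, had 158, 155 and 151 CPM with Soshiho-tang, against 86.1, 111 and 107 CPM with Yijin-tang (0.61 ± 0.09, adjusted p = 0.000526). The vehicle mean was 156 CPM, at the level of Soshiho-tang. KCNMA1 (chr10:76869601-77638369), the large-conductance calcium-activated potassium channel, had 139, 142 and 141 CPM with Soshiho-tang, against 101, 108 and 113 CPM with Yijin-tang and a vehicle mean of 142 CPM (0.39 ± 0.04, adjusted p = 1.77e-05). PITPNM3, a membrane-associated phosphatidylinositol transfer protein, averaged 72.1 ± 2.44 CPM with Soshiho-tang against 52.2 ± 4.60 with Yijin-tang (0.47 ± 0.05, adjusted p = 3.95e-05). PODXL, the sialomucin podocalyxin, averaged 112 ± 5.22 CPM with Soshiho-tang against 84.5 ± 2.44 with Yijin-tang (0.40 ± 0.06, adjusted p = 0.000308). HDAC9, a histone deacetylase, averaged 35.6 ± 0.726 CPM with Soshiho-tang against 27.4 ± 0.756 with Yijin-tang (0.38 ± 0.05, adjusted p = 0.000303). These 5 were called in every omission of 1 library, and the other 10 of the 15 largest increases, chosen by the same conditions, lost their call in at least 1.

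Those 10 genes included structural, signalling and channel genes. NES, the intermediate filament nestin of neural progenitors, had 7.78, 10.4 and 7.10 CPM with Soshiho-tang, against 6.36, 4.67 and 6.04 CPM with Yijin-tang (0.55 ± 0.12, adjusted p = 0.0353). The groups were separate but lay close, and the adjusted p reached 0.257 without Soshiho-tang replicate 2. FLNC, the actin crosslinker filamin C, had 1022, 881 and 967 CPM with Soshiho-tang, against 639, 760 and 767 CPM with Yijin-tang (0.41 ± 0.08, adjusted p = 0.0117, and 0.0925 without Yijin-tang replicate 1). EGR3, an immediate early transcription factor, averaged 9.47 ± 0.907 CPM with Soshiho-tang against 6.72 ± 0.858 with Yijin-tang (0.50 ± 0.12, adjusted p = 0.0465, and up to 0.243 in omissions). The same size of change was measured for BCL2, which blocks apoptosis at mitochondria (0.47 ± 0.09), and CNIH3, an auxiliary subunit of AMPA receptors (0.47 ± 0.10). TGFBR3, the TGF-beta coreceptor betaglycan (0.42 ± 0.08), PTPRB, a receptor tyrosine phosphatase (0.41 ± 0.08), ADCY1, an adenylate cyclase (0.40 ± 0.08), SYNE3, a linker of the nuclear envelope to the cytoskeleton (0.39 ± 0.08), and ITPR3, an inositol trisphosphate receptor (0.37 ± 0.08), made up the rest. Each of these 7 lost its call in at least 1 omission, with adjusted p of up to 0.173. Without Yijin-tang replicate 1, all of the 10 genes except NES and CNIH3 lost their call. PCDH19, a protocadherin, had the largest increase (1.26 ± 0.30, adjusted p = 0.0469) but under 1 CPM in both groups, and was added after its values were seen.

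Transcript length moved with this side of the comparison. The median length of the longest annotated transcript was 6473 bases for the 46 higher genes and 3516 bases for the 81 lower genes, against 3253 bases for all tested genes, and 30 of the 46 fell in the longest quintile. The median log2 difference went from -0.09 in the shortest quintile to 0.06 in the longest. When 1 of the 6 libraries was left out, 13 to 31 of the 46 higher calls and 39 to 61 of the 81 lower calls remained. Without Yijin-tang replicate 1, whose long transcripts were low, 14 higher and 57 lower calls remained, and without Soshiho-tang replicate 1 there were 13 and 51. With a correction for length and GC content in each library, 39 of the 46 and 77 of the 81 remained among 167 calls. AHNAK2 was still higher, by 0.48 to 0.68 in all 16 alternatives. Against vehicle, the 46 higher genes had a median log2 difference of 0.05 with Soshiho-tang and -0.29 with Yijin-tang, while the 81 lower genes had -0.22 with Soshiho-tang and 0.19 with Yijin-tang. Those medians use the libraries that made the calls and the same vehicle libraries, and describe only where vehicle stood. The part of transcript length in the higher calls was not tested further.

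**Figure D3:**
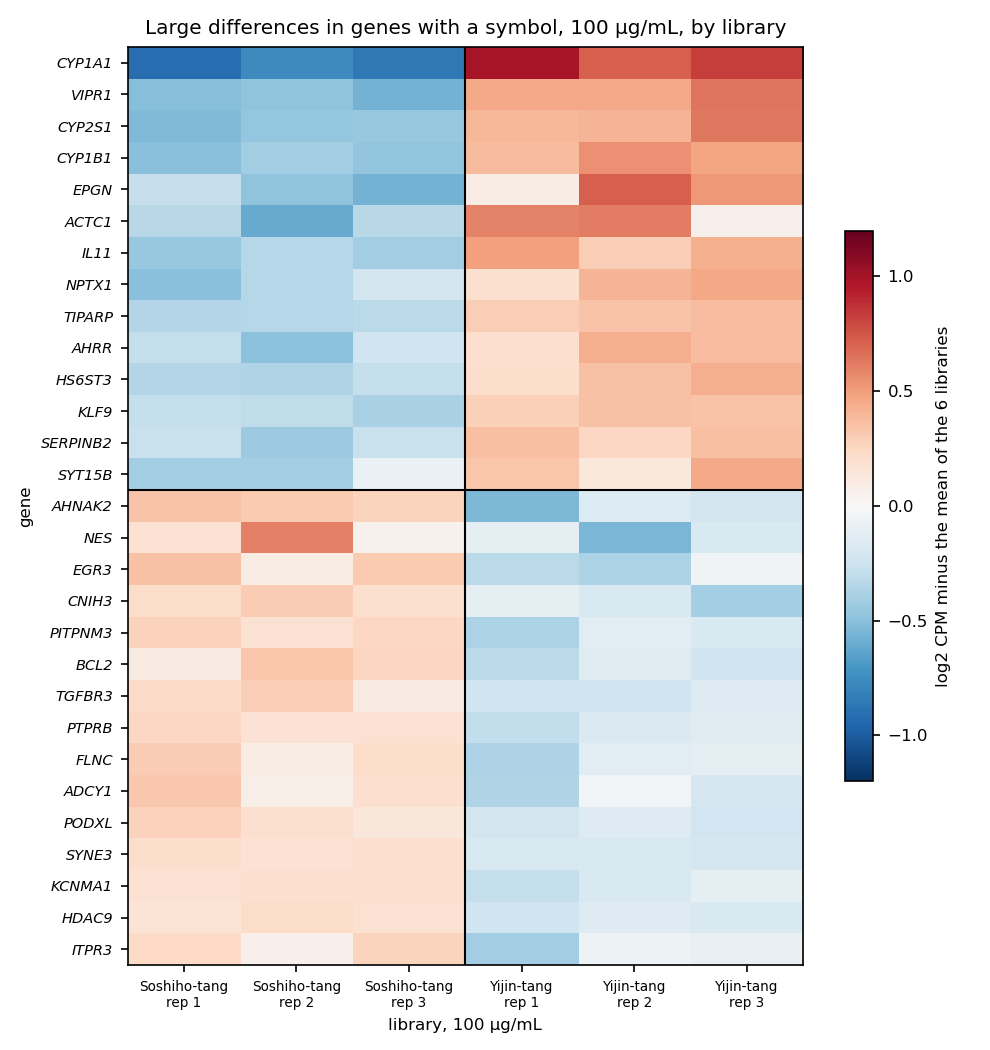
Each library's log2 CPM minus the mean of the 6 libraries (colour scale) for 14 large decreases above and 15 large increases below (rows; genes with a symbol and at least 1 CPM in the higher group), with Soshiho-tang libraries on the left and Yijin-tang libraries on the right; RPS10-NUDT3 is left out because of its zeros. The colours separate the extracts in every row, and for AHNAK2, FLNC and ITPR3 Yijin-tang replicate 1 is the lowest of its group, at 86.1 CPM for AHNAK2.

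Over all 37 gene lists, the AhR list included, 653 genes were tested. Of these 5 were higher (0.766%, against 0.273% of all genes tested) and 22 lower with Soshiho-tang (3.37%, against 0.48%). The lists were chosen with earlier results of these data known, so these shares only describe their members. Among 13 tested glucocorticoid-responsive genes 4 were lower (30.8%) and 0 higher. Besides KLF9 they were DUSP1, a phosphatase that inactivates MAP kinases (-0.52 ± 0.06, adjusted p = 7.69e-05), SGK1, a kinase that regulates ion transport (-0.29 ± 0.04, adjusted p = 0.000346), and CRISPLD2, a secreted protein (-0.25 ± 0.05, adjusted p = 0.0175). The median of that list was -0.04. DUSP1 had 31.6, 29.8 and 29.2 CPM with Soshiho-tang, against 45.8, 41.1 and 42.7 CPM with Yijin-tang, with a vehicle mean of 42.1 CPM. CRISPLD2 lost its call in 3 of 6 omissions of 1 library (adjusted p up to 0.12).

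The stress and metabolic lists given here had 1 to 3 calls each, all lower with Soshiho-tang except HMOX1. Of 25 ATF4 targets, which serve amino acid supply and the integrated stress response, 3 were lower and 0 higher, with a list median of -0.02. They were SLC7A5, STC2 and DDIT4, an inhibitor of mTORC1 that had 49.7, 57.3 and 58.1 CPM with Soshiho-tang, against 78.6, 74.3 and 77.4 CPM with Yijin-tang (-0.48 ± 0.09, adjusted p = 0.0083, and 0.0827 without Soshiho-tang replicate 1). Of 29 NRF2 targets 1 was higher and 0 lower (median -0.02). It was HMOX1 (chr22:35380361-35394214), the heme-degrading enzyme, with 72.9, 69.2 and 71.8 CPM with Soshiho-tang, against 61.9, 53.2 and 60.9 CPM with Yijin-tang and a vehicle mean of 57.5 CPM (0.28 ± 0.06, adjusted p = 0.0172). Its call ended in 3 of 6 omissions (up to 0.0987). Of 32 genes of hypoxia response and glycolysis 2 were lower, the glucose transporter SLC2A1 (-0.28 ± 0.05, adjusted p = 0.00599) and the angiogenic factor VEGFA (-0.23 ± 0.05, adjusted p = 0.0138). Of 26 cholesterol genes 1 was lower, INSIG1, which retains the sterol sensor in the endoplasmic reticulum, with 118, 117 and 119 CPM with Soshiho-tang, against 152, 147 and 152 CPM with Yijin-tang (-0.35 ± 0.04, adjusted p = 2.6e-05).

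Signalling lists had 1 or 2 calls each. Of 20 TGF-beta and BMP response genes 2 were lower, the inhibitor of differentiation ID3 (-0.40 ± 0.09, adjusted p = 0.0354) and the activin subunit INHBA, which had 71.5, 78.5 and 77.1 CPM with Soshiho-tang, against 99.8, 98.2 and 96.8 CPM with Yijin-tang (-0.38 ± 0.05, adjusted p = 7.44e-05). In that list 17 of 20 differences were negative and the median was -0.09. Inflammatory genes had 2 of 21 lower (IL11 and PTGS2) and 0 higher, ERK feedback genes 2 of 19 lower (IL11 and DUSP1), and YAP and SRF contractile targets 1 of 19 lower (ACTC1). The p53 list had 1 of 19 lower, the cyclin-dependent kinase inhibitor CDKN1A (-0.40 ± 0.08, adjusted p = 0.0172), and the estrogen receptor list 1 of 9 lower, the IGF-binding protein IGFBP4 (-0.36 ± 0.05, adjusted p = 9.11e-05). Single members were higher among immediate early genes (EGR3, 1 of 24), heat shock genes (the chaperone DNAJB4, 1 of 16; 0.21 ± 0.04, adjusted p = 0.0257) and FOXO and insulin feedback genes (the ubiquitin ligase FBXO32, 1 of 17; 0.27 ± 0.05, adjusted p = 0.00406). Calls of ID3, CDKN1A, VEGFA, SLC2A1 and DNAJB4 ended in 1 to 5 of 6 omissions of 1 library, with adjusted p of up to 0.247, 0.129, 0.0891, 0.0563 and 0.173 in that order. For ID3, CDKN1A and DNAJB4 these omissions included that of Yijin-tang replicate 1.

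The lists with no called member included 34 extracellular matrix genes, 30 mitotic genes, 34 DNA replication genes, 29 interferon-stimulated genes, 24 lysosome and autophagy genes, 18 endoplasmic reticulum chaperones, 29 nuclear respiratory chain genes and 13 mitochondrially encoded transcripts. Their medians lay between -0.07 and 0.02. THBS1, the matrix glycoprotein thrombospondin 1, came nearest to a call, averaging 1584 ± 15.1 CPM with Soshiho-tang against 1926 ± 99.1 with Yijin-tang (-0.28 ± 0.07, adjusted p = 0.05). Of 45 cytosolic ribosomal protein genes, which have short transcripts, 44 had negative differences with a median of -0.09 and none was called, beside the median of -0.09 for the shortest quintile of all genes. Among the leading genes of the series, GDF15, TXNIP and EGR1 were not called here. GDF15, a stress-induced cytokine, averaged 4.28 ± 0.922 CPM with Soshiho-tang against 4.00 ± 0.367 with Yijin-tang (adjusted p = 0.86). TXNIP, the thioredoxin-interacting arrestin, averaged 11.6 ± 0.574 CPM with Soshiho-tang against 11.7 ± 1.19 with Yijin-tang (adjusted p = 0.977), and EGR1, an immediate early factor, 43.6 ± 5.24 CPM with Soshiho-tang against 38.9 ± 3.07 with Yijin-tang (adjusted p = 0.542).

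**Figure D4:**
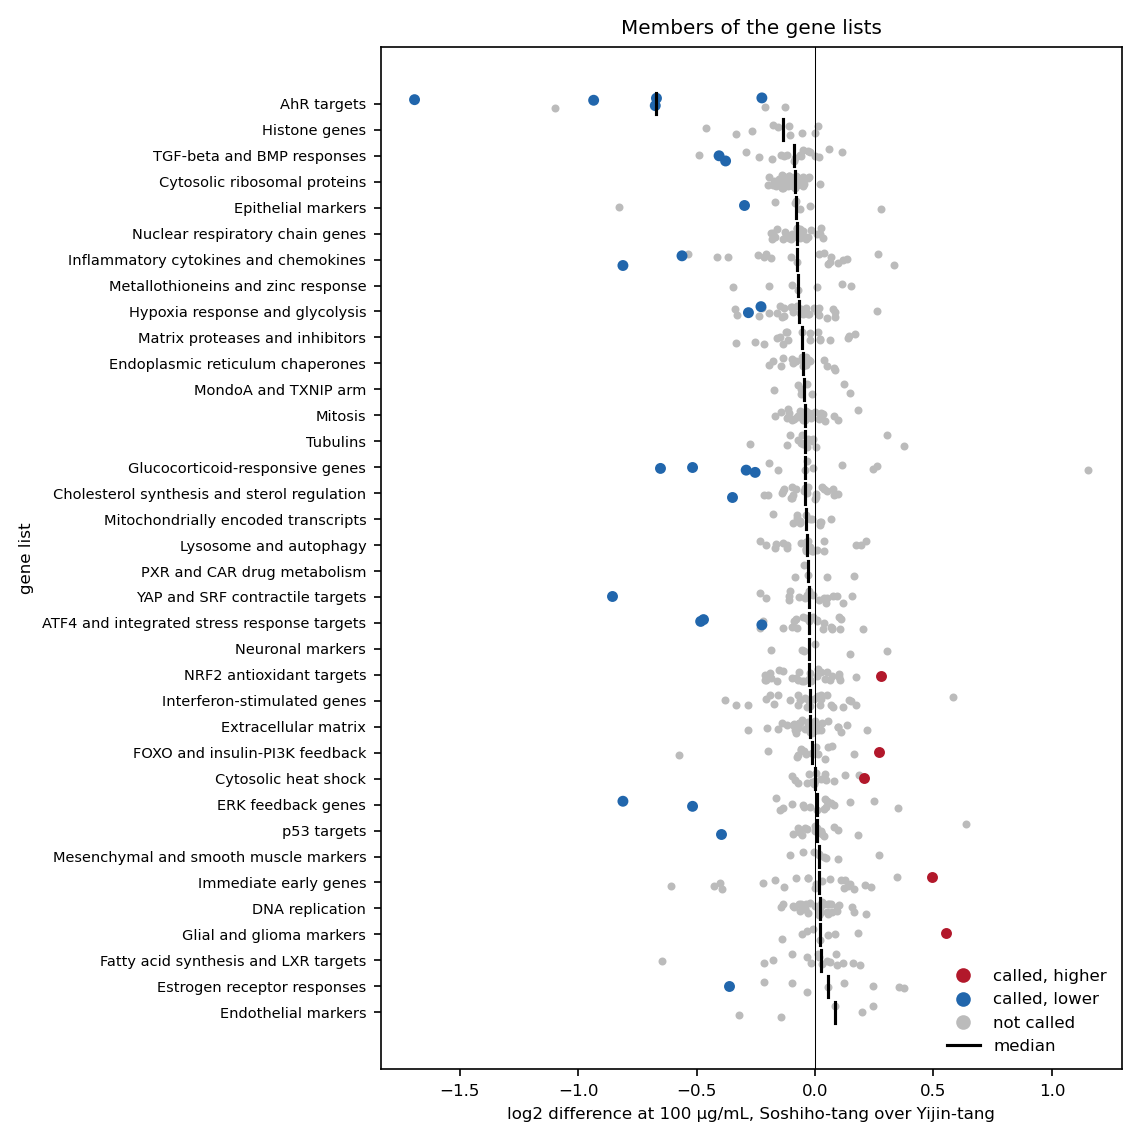
Log2 difference between Soshiho-tang and Yijin-tang at 100 µg/mL (horizontal axis) of the tested members of each gene list with at least 5 tested members (vertical axis); points are genes, filled red or blue where called higher or lower and grey otherwise, and black lines are list medians. The AhR targets at the top have a median of -0.67, while the other medians stay between -0.13 and 0.08.

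Of the markers of cell types, NES and KRT81 were called. Among the glial and glioma markers 1 of 9 tested was called (NES), and the summed level of the list ran from 8466 to 9372 CPM with Soshiho-tang and from 8628 to 9389 CPM with Yijin-tang, with FABP7 at 0. Neuronal markers summed to 135 to 151 CPM with Soshiho-tang and 149 to 152 CPM with Yijin-tang, with 0 of 6 called and DCX at 0. Endothelial markers summed to 37.8 to 40.7 CPM with Soshiho-tang and 34.9 to 38.9 CPM with Yijin-tang, with 0 of 5 called. Leukocyte markers summed to 160 to 204 CPM with Soshiho-tang and 174 to 210 CPM with Yijin-tang, with 0 of 4 called and TYROBP, MS4A1 and AIF1 at 0. Epithelial markers had 1 of 8 called, the keratin KRT81, which was lower (-0.30 ± 0.06, adjusted p = 0.0259, and 0.22 without Yijin-tang replicate 1), and mesenchymal markers 0 of 9. Mesenchymal markers summed to 999 to 1164 CPM with Soshiho-tang and 1036 to 1196 CPM with Yijin-tang. Summed epithelial markers ran from 991 to 1058 CPM with Soshiho-tang and from 1100 to 1219 CPM with Yijin-tang, without overlap. Sums of some other lists did not overlap either, such as the ATF4 targets (1838 to 1851 CPM with Soshiho-tang, 2016 to 2064 with Yijin-tang). Of all genes tested, 14.6% did not overlap between the extracts. The part of the epithelial markers in the results was not tested. In these bulk libraries fewer cells of a type and less RNA per cell cannot be told apart.

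The differences at 100 µg/mL were then read beside those between the same extracts at 20 and 500 µg/mL, which share no library with them. At 500 µg/mL 4255 genes were called between the extracts (25.2%), 12.5% higher and 12.8% lower with Soshiho-tang. At 20 µg/mL there were 22 (0.13%), 4 higher (0.0237%) and 18 lower (0.107%). Of the 127 genes, 100 were called in the same direction at 500 µg/mL, which is 78.7% of the 127 and 2.35% of the 4255, and 5 were called in the opposite direction (VEGFA, SLC7A5, NRP2, PLXNA2 and SLIT2). At 20 µg/mL 124 of the 127 had the same sign and 17 were called, which is 13.4% of the 127 and 77.3% of the 22. The 81 lower genes had median log2 differences of -0.27, -0.41 and -0.65 at 20, 100 and 500 µg/mL, and the 46 higher genes 0.16, 0.34 and 0.49. The order 20, 100, 500 held in 83 of the 127 genes. These genes were chosen by their difference at 100 µg/mL, which can make it look larger beside that at 20 µg/mL. Signs and order were not counted over all genes tested.

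AhR targets were among the 22 genes called at 20 µg/mL. CYP1B1 had 91.5, 90.0 and 90.1 CPM with Soshiho-tang at 20 µg/mL, against 139, 142 and 146 CPM with Yijin-tang at 20 µg/mL (a log2 difference of -0.65, adjusted p = 7.52e-07). TIPARP (-0.51, adjusted p = 1.17e-05), AHRR (-0.43, adjusted p = 0.00485), KLF9 (-0.41, adjusted p = 1.17e-05), PTGS2 (-0.31, adjusted p = 0.00558) and ALDH1A3 (-0.31, adjusted p = 0.00154) were lower with Soshiho-tang at 20 µg/mL as well. CYP1A1 showed -0.88 there and did not pass the test (adjusted p = 0.324), with 1 Yijin-tang library at 0.645 CPM, near the 0.482 to 0.626 CPM of Soshiho-tang. At 500 µg/mL CYP1B1 had between 52.6 and 58.1 CPM with Soshiho-tang, against 145, 151 and 151 CPM with Yijin-tang, a wider gap than at 100 µg/mL.

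**Figure D5:**
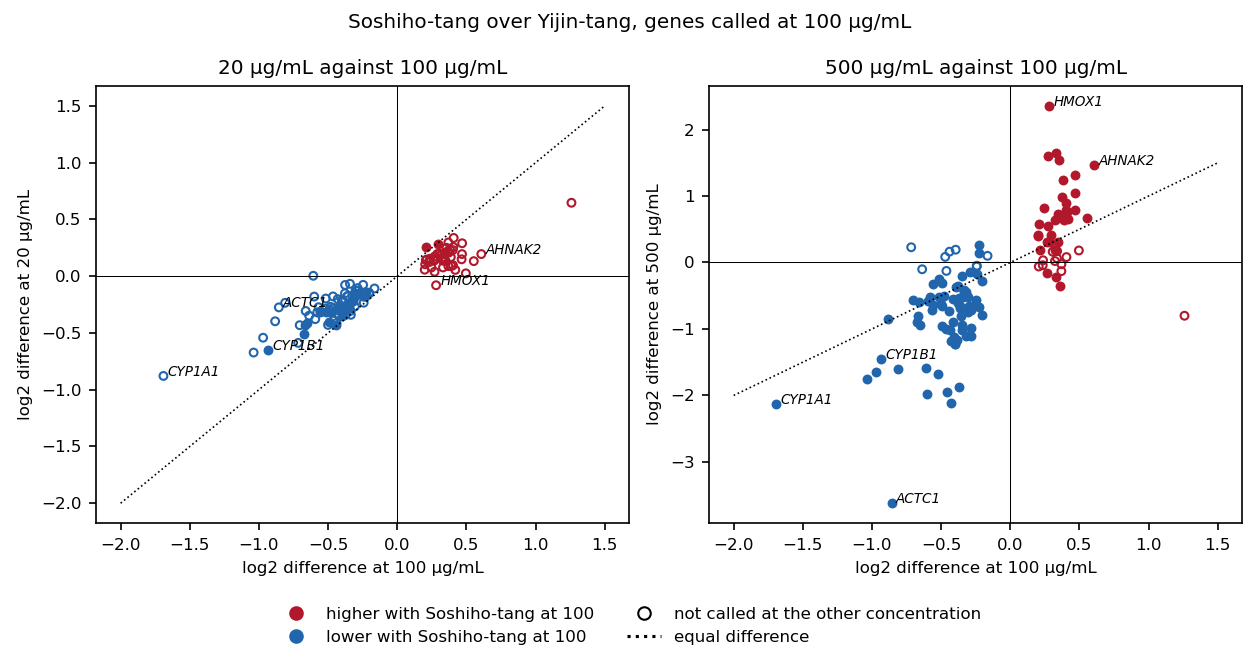
Log2 difference between Soshiho-tang and Yijin-tang at 20 µg/mL (left, vertical axis) and at 500 µg/mL (right, vertical axis) against that at 100 µg/mL (horizontal axis) for the called genes except RPS10-NUDT3; filled points were also called at the other concentration and the dotted line marks equal differences. Most points on the left lie nearer to 0 than the line, with medians of -0.27 and 0.16 at 20 µg/mL for genes lower and higher at 100 µg/mL, and many on the right lie beyond it. The genes were chosen by their difference at 100 µg/mL, which can add to the gap on the left.

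Whether the difference depended on concentration was tested directly. The difference at 100 µg/mL departed from that at 500 µg/mL in 1931 genes (11.4%), of which 1038 (6.15%) had a more positive difference at 100 µg/mL and 893 (5.29%) a more negative one. The 127 genes were chosen by their difference at 100 µg/mL, which is also a term of this test. That choice can add to the smaller or opposite differences at 500 µg/mL counted here. Among the 127 genes 73 were called in this test, 54 with a larger difference at 500 µg/mL and 19 with a smaller or opposite one. CYP1B1 belonged to those with a larger one, with -0.93 at 100 µg/mL and -1.45 at 500 µg/mL (0.52 ± 0.08 for the difference at 100 minus that at 500 µg/mL, adjusted p = 5.56e-05). HMOX1 was higher by 0.28 at 100 µg/mL and by 2.36 at 500 µg/mL on the log2 scale, where it averaged 406 CPM with Soshiho-tang against 79.3 with Yijin-tang (change -2.08 ± 0.08, adjusted p = 1.4e-13). STC2 and CDKN1A were lower at 100 µg/mL (-0.47 and -0.40) and not called at 500 µg/mL (0.08, adjusted p = 0.243, and 0.19, adjusted p = 0.0688). Their changes were -0.55 ± 0.07 (adjusted p = 9e-06) and -0.59 ± 0.11 (adjusted p = 0.000843). TIPARP, AHRR and CYP1A1 gave no call (adjusted p = 0.0569, 0.468 and 0.585). Between 100 and 20 µg/mL the test called 0 genes (0%), with 418 at an unadjusted p under 0.05 in edgeR and 1 call with DESeq2.

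Few genes were called between 20 and 100 µg/mL of either extract, and a gene without a call may still have changed. These comparisons use the same 100 µg/mL libraries as the results above. Soshiho-tang at 100 µg/mL differed from 20 µg/mL in 12 genes (0.0711%), 1 higher (0.00593%) and 11 lower (0.0652%). CYP1B1 averaged 67.6 CPM at 100 µg/mL and 90.6 CPM at 20 µg/mL of Soshiho-tang (-0.42 ± 0.05, adjusted p = 0.000717), and AHRR (-0.41, adjusted p = 0.0207) and TIPARP (-0.30, adjusted p = 0.0217) were lower too. So were ALDH1A3 (-0.34), GDA (-0.39), ABCG2 (-0.35), PTGS2 (-0.32) and KLF9 (-0.22). The other 3 lower genes serve sterol metabolism, namely INSIG1 (-0.37, adjusted p = 7.87e-05), HMGCS1, which makes a precursor of mevalonate (-0.27, adjusted p = 0.0422), and MSMO1, a sterol oxidase (-0.26, adjusted p = 0.0422). HMOX1 was the higher gene (0.32, adjusted p = 0.0359). Leaving out Soshiho-tang replicate 1, 2 or 3 at 100 µg/mL gave 7, 3 or 4 calls, and leaving out replicate 1, 2 or 3 at 20 µg/mL gave 3, 3 or 5. Yijin-tang at 100 µg/mL differed from 20 µg/mL in 1 gene (0.00593%), INSIG1, which averaged 150 CPM at 100 µg/mL and 184 CPM at 20 µg/mL (-0.29 ± 0.04, adjusted p = 0.0045). That call ended without replicate 2 at 100 µg/mL or replicate 3 at 20 µg/mL. CYP1B1 showed -0.14 with Yijin-tang and did not pass the test (adjusted p = 1), and whether this differed from its change with Soshiho-tang is the comparison of 100 with 20 µg/mL given above (difference -0.28, adjusted p = 1).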

How the data were processed

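SW1783 RNA was made into directional MGI libraries and sequenced as paired ends, per the labels' protocols. The authors deposited expected counts per gene, made with RSEM 1.3.3 after STAR 2.7.3a, Trim Galore 0.6.5 and FastQC 0.11.9 on hg38/GRCh38, per the submitters' processing notes. Neither the annotation release nor the strand setting is given in the sources used here. Overlapping, antisense and read-through genes are therefore uncertain. The deposited table has 60675 gene entries, of which 57055 matched GENCODE v29 (coordinates, GRCh38), and 30 blank columns. Between 9.29% and 9.70% of values in the 6 libraries were not whole, and all were rounded. Libraries of one group differed by a chi-square per degree of freedom of 3.86 to 12.6, so none looked deposited more than once.

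Samples were grouped by extract and concentration in the labels. The labels and the series text give different DMSO concentrations for the vehicle, which could not be settled. A single edgeR 4.0.16 quasi-likelihood fit (R 4.3.3, limma 3.58.1) held 21 libraries, with TMM scaling, filterByExpr (minimum count 10, minimum total 15) and Benjamini-Hochberg adjustment over 16872 genes, called under 0.05. Standard errors are the log2 difference over the square root of F. Named genes were, among called genes with a gene symbol, the 15 largest differences per direction without overlap whose higher group averaged at least 1 CPM, 5 per direction in other comparisons, up to 4 called members per list (or the member with the lowest p), and fixed markers and leading genes. A few list members so named are not given singly. The comparison, the lists and the named genes were chosen with earlier results of these data known. Alternatives were RLE scaling, no or a stricter filter, other sets of libraries, a replicate block, DESeq2 1.42.0, leaving out mitochondrial genes or each library, and, after seeing the data, a correction for GC content and length. The fit was checked on simulated counts with known changes in abundant genes only. There 78% of changes of 0.4 log2 units were recovered, and 9 of 191 calls were false. The simulation used the fit's own spread and set no library apart, so it cannot speak to Yijin-tang replicate 1 or to scarce genes. Promoters came from RefSeq GRCh38.p14.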

Additional observations from a re-analysis of the deposited data

Results flagged for a closer look

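The difference between Soshiho-tang and Yijin-tang at 100 µg/mL departed from the difference at 500 µg/mL in 1931 genes by a test of the interaction (edgeR, adjusted p under 0.05). The values below are the log2 difference at 100 µg/mL minus that at 500 µg/mL. Among genes that test called, they cover the largest departures per direction, leading genes of the series and AhR list members named above. STC2 was added by choice. Other genes named above were also called by that test, such as FBXO32 (-1.33) and IL11 (0.79), and are not listed here. The extracts differed more at 500 µg/mL for CYP1B1 (0.52), ACTC1 (2.77) and HMOX1 (-2.08).

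Many of the others were not called at 100 µg/mL and were called at 500 µg/mL. GDF15 gave -3.67, with 50.7 CPM with Soshiho-tang against 3.73 with Yijin-tang at 500 µg/mL. TXNIP gave 1.77, with 14.9 CPM with Soshiho-tang against 51.1 with Yijin-tang at 500 µg/mL. KCP, a secreted modulator of BMP signalling, gave -3.20, the keratin KRT75 -2.998 and the pseudogene RPLP0P2 -2.90, whose reads cannot be told apart from those of RPLP0 with certainty. In the other direction, MIR210HG, the host transcript of a hypoxia-induced microRNA, gave 2.75, the keratin pseudogene KRT8P47 2.60, the smooth muscle coactivator MYOCD 2.15 and the zinc-finger factor KLF17 1.87.

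STC2 (-0.55) and SLC7A5 (-0.48) were lower with Soshiho-tang at 100 µg/mL, and at 500 µg/mL showed log2 differences of 0.08 and 0.26. At 500 µg/mL only that of SLC7A5 was called. RPS10-NUDT3 gave -6.15 and showed 0.28 at 500 µg/mL, where it averaged 1.26 CPM with Soshiho-tang against 1.01 with Yijin-tang, against 0.0253 CPM with Soshiho-tang against 1.77 with Yijin-tang at 100 µg/mL. Its reads cannot be assigned with certainty, and the part of that in the values was not tested.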

How the results depend on the processing

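The count of 127 genes between the extracts at 100 µg/mL became 396 with no filter on low counts, 46 with only the 6 libraries of the comparison and 37 with these and the replicate block. It was 128 with RLE scaling, 132 with a stricter filter, 111 without vehicle, 118 with the replicate block, 130 without mitochondrial genes, 187 with DESeq2 and 167 with the correction for GC content and length, and ran from 61 to 124 when 1 library was left out. No call changed sign. Smaller fits have fewer libraries to estimate the spread, but neither this nor any other cause of these shifts was tested. Of the 15 named decreases and 15 named increases of the largest size 12 were called under every alternative run. AhR list members called lower numbered 3 to 6. Deviations of same-numbered replicates had correlations of -0.11, 0.16 and 0.09, within the -0.27 to 0.24 of differently numbered ones. With so few libraries this cannot tell whether same-numbered replicates shared a culture or a run.

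Without the filter the comparison of the differences at 100 and 20 µg/mL gave 65 genes in place of 0, Soshiho-tang at 100 against 20 µg/mL 101 in place of 12 and Yijin-tang 67 in place of 1. DESeq2 gave 1 for the first and 8 for Yijin-tang. Soshiho-tang gave 7 without vehicle, 3 with only its groups, with or without the block, and 3 to 7 in the omissions that moved it. Yijin-tang gave 2 with the stricter filter, 0 with only its groups, with or without the block, 4 with the GC and length correction, and 0 to 1 in omissions. The 1931 genes of the comparison with 500 µg/mL stayed within 1.5 times under every alternative run. At 1 CPM a gene rests on more than 20 reads per library, so counting error is larger there than in abundant genes; how detection varied with expression was not tested.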
